A study of Mus musculus with 6 samples.

Results

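The proteasome genes of BV2 cells, which the study describes as a line of mouse microglia, were examined with and without knockdown of TonEBP. Every gene whose mouse symbol is Psm followed by a letter from a to g and a number was taken, which gave 51 of the 21899 genes in the table. The sh-NC group (n = 3 libraries) carried a lentivirus with a scrambled shRNA, and the sh-TonEBP group (n = 3) carried a lentivirus with an shRNA against NFAT5, the other name of TonEBP. Both viruses carried a puromycin resistance gene used for selection, each group rests on a single shRNA, and the labels give no other treatment. Poly(A) RNA was sequenced, and the values are raw read counts per gene.

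The proteasome is the protease that degrades proteins marked with ubiquitin. Its core is a barrel of stacked rings, in which alpha subunits (Psma) form the gates and beta subunits (Psmb) hold the protease sites, and a cap binds the ubiquitin chain (lid and base, Psmd) and unfolds the protein with a ring of ATPases (Psmc). Interferons induce 3 alternative catalytic subunits, Psmb8, Psmb9 and Psmb10, which replace Psmb5, Psmb6 and Psmb7 in newly built cores to form the immunoproteasome, and the activator PA28, made of Psme1 and Psme2. The immunoproteasome is known for cutting peptides that fit MHC class I, and in the brain it is found mainly in microglia and during inflammation.

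The libraries summed to 13621188 to 16140042 counts. Levels are given in CPM, counts scaled to a common library size after TMM normalization, and changes as log2 fold changes of sh-TonEBP over sh-NC from the quasi-likelihood test of edgeR, with p-values adjusted by Benjamini-Hochberg over the 11943 genes that passed a filter on low counts. A gene was called higher or lower at an adjusted p under 0.05. Whether replicates were grown as separate cultures is not stated, and the p-values therefore describe the spread between libraries, which may be technical. As a check of the labels, Nfat5 had 9641 to 11640 counts in sh-NC and 3894 to 5257 in sh-TonEBP. Of 13 markers of microglia, 9 stood under 1 CPM in every library, with Spi1, Ptprc, Itgam, Aif1 and P2ry12 at 0 to 3 counts. The name microglia is the study's, and most of these markers do not bear it out. The summed level of the 13 ranged over 57.8 to 66.4 CPM in sh-NC, against 68.7 to 85.6 CPM in sh-TonEBP. The 9 fibroblast markers summed to 469 to 503 CPM in sh-NC, against 1544 to 1706 CPM in sh-TonEBP, with Thy1 at 0, and the 4 epithelial markers to 604 to 753 and 1193 to 1501 CPM, with Epcam and Cdh1 under 1 CPM. These lists moved with the groups, and their part in the results on the proteasome was not tested. In bulk RNA a change in the share of cells and a change in RNA per cell cannot be told apart.

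Proteasome genes were mostly higher in sh-TonEBP cells. Of the 49 Psm genes tested, 30 were called higher, 1 was called lower and 18 were not called. Among all genes tested, 26.3% were called higher and 26.2% lower. The median log2 fold change was 0.41 over the 49 Psm genes and 0.00 over all genes. The immune subunits led, with 5 of 5 called higher, followed by the core with 11 of 14, the cap with 9 of 17 and the assembly chaperones with 3 of 7. The 2 Psm genes not tested were Psma8, the alpha subunit of the testis, with 0 counts in every library, and Psmb11, the catalytic subunit of the thymus, with 4 counts in sh-NC replicate 3, 1 in sh-TonEBP replicate 2 and 0 elsewhere. With 0 counts, up to 3 cannot be told from none by counting error alone.

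**Figure D1:**
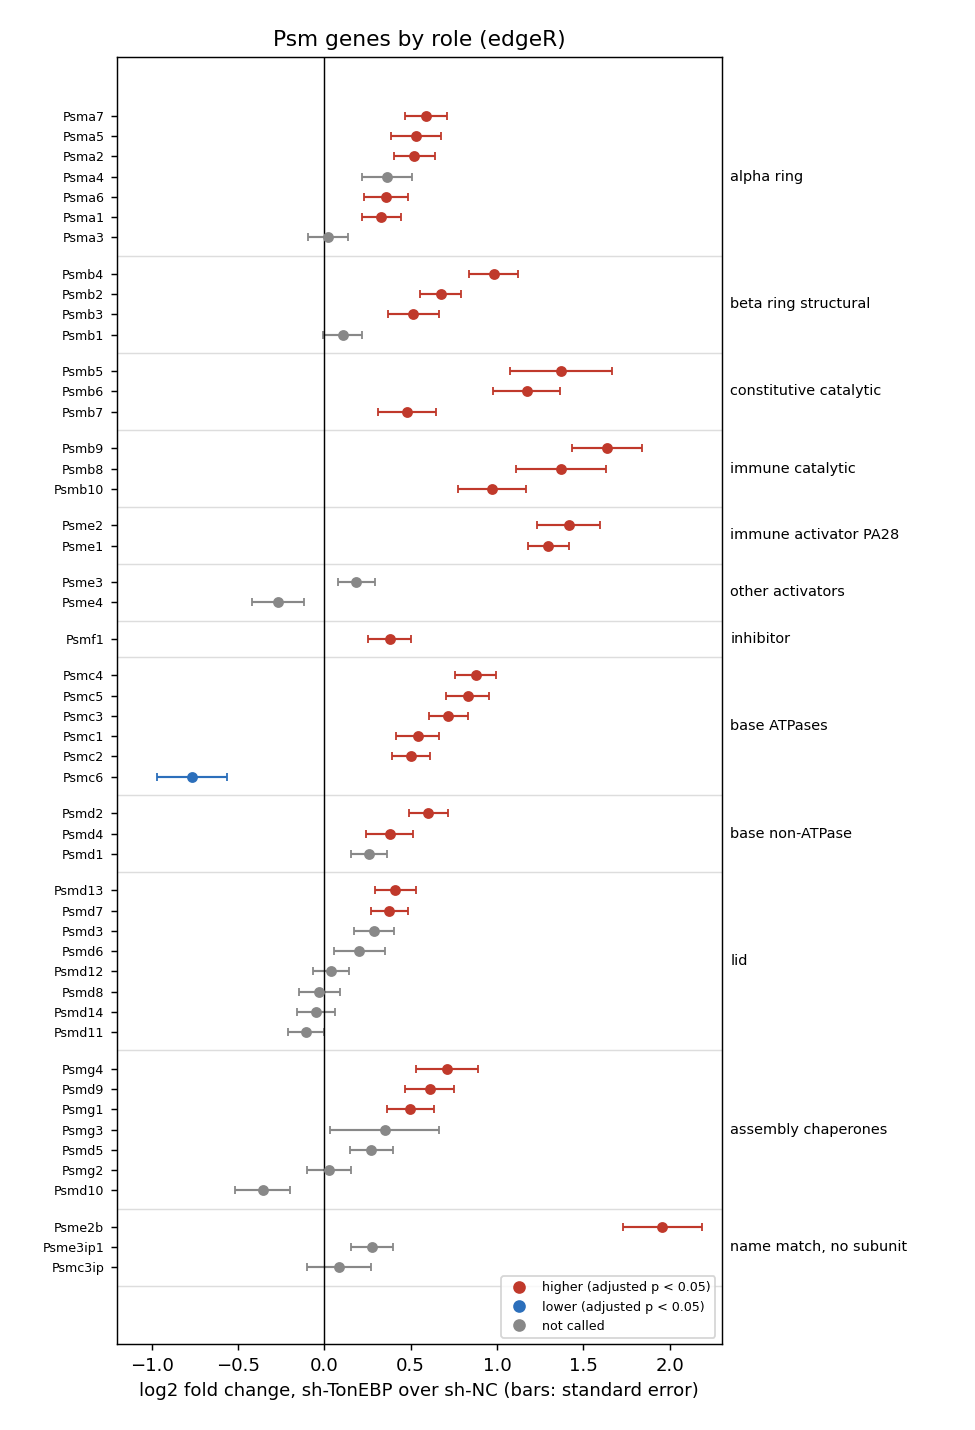
Log2 fold change (x axis, sh-TonEBP over sh-NC, bars are standard errors from edgeR) of the 49 tested Psm genes, grouped by role. The 5 immune subunits sit between 0.97 and 1.64, the 8 lid genes sit between -0.10 and 0.41, and Psmc6 is the 1 gene called lower.

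All 5 immune subunits rose, although the 3 catalytic ones remained scarce. Psmb9, which replaces Psmb6 at the site that cuts after acidic residues, stood at 4.55, 4.77 and 6.33 CPM in sh-NC and at 18.1, 17.9 and 12.7 in sh-TonEBP. Every sh-TonEBP library was above every sh-NC library, and the log2 fold change was 1.64 (standard error 0.20, adjusted p = 5.87e-05). Psmb8, which replaces Psmb5 at the chymotrypsin-like site, stood at 5.58, 4.05 and 5.69 CPM in sh-NC and at 12.4, 18.3 and 8.86 in sh-TonEBP. The groups did not overlap, the sh-TonEBP libraries differed among themselves more than those of sh-NC did, and the log2 fold change was 1.37 (standard error 0.26, adjusted p = 0.00105). Psmb10, which replaces Psmb7 at the trypsin-like site, stood at 5.77, 3.98 and 5.05 CPM in sh-NC and at 10.7, 8.93 and 9.51 in sh-TonEBP. Its change was the smallest of the 5, at 0.97 (standard error 0.20, adjusted p = 0.00143), again without overlap. These 3 genes rested on 60 to 99 counts per sh-NC library and 123 to 291 per sh-TonEBP library.

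The PA28 genes moved by a similar amount, at a higher level per kilobase of exon (25.7 CPM per kilobase for Psme1 in sh-NC, against 3.86 for Psmb9). Psme1, the alpha subunit of PA28, stood at 28.9, 28.1 and 28.8 CPM in sh-NC and at 77.7, 64.8 and 67.9 in sh-TonEBP. The sh-NC libraries were nearly identical, and the log2 fold change of 1.30 (standard error 0.12) had the smallest adjusted p of all Psm genes, 9.78e-06. Psme2, the beta subunit, stood at 22.3, 13.2 and 16.1 CPM in sh-NC and at 40.0, 51.6 and 46.0 in sh-TonEBP, and changed by 1.42 on the log2 scale (standard error 0.18, adjusted p = 8.56e-05). The symbol rule also took Psme2b, a copy of Psme2 on another chromosome, which had 69, 42 and 55 counts in sh-NC and 182, 280 and 177 in sh-TonEBP (log2 fold change 1.96, adjusted p = 4.24e-05). The counting of reads that match both copies is not stated, and the split between Psme2 and Psme2b is uncertain. The other activators were not called. Psme3, which forms the nuclear activator PA28 gamma, stood at 149, 160 and 157 CPM against 194, 168 and 169 (log2 fold change 0.19, adjusted p = 0.163), and Psme4, the activator PA200, at 268, 328 and 276 CPM against 187, 262 and 275 (log2 fold change -0.27, adjusted p = 0.146). With the length and GC trends removed, Psme4 turned to 0.31 and was called higher (adjusted p = 0.00920). Per kilobase of exon, Psme1 and Psme2 made up 33.4%, 25.9% and 29.5% of the summed level of these 4 activator genes in sh-NC, against 52.2%, 51.8% and 50.6% in sh-TonEBP.

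Summed over the 5 immune subunits, the level went from 61.0 ± 6.54 CPM to 155 ± 8.88 CPM (sh-NC to sh-TonEBP, SD, n = 3 each). The groups did not overlap for any of the 5, a pattern that 31.2% of all genes tested showed in this direction. At the study's cutoffs, a log2 fold change over 1 and an unadjusted p under 0.05, 7 Psm genes were higher and 0 lower (4 of them immune subunits), where 6.38% of all genes were higher and 8.53% lower. All 5 were called higher by DESeq2 (as were 3036 of the 11943 genes tested), with each library left out in turn, and after trends on length and GC were removed. With the length trend removed, the median of the 5 fell from 1.37 to 1.04, and with both trends removed it was 0.93. The median over all genes tested was 0.03 with the length trend removed and 0.09 with both removed.

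Psmb9 lies head to head with Tap1, a subunit of the transporter that carries proteasome products to MHC class I, and Psmb8 lies next to Tap1 and Tap2 in the same cluster on chromosome 17. All 4 genes were higher in sh-TonEBP cells, Tap1 by 0.76 and Tap2 by 0.88 on the log2 scale. Psme1 and Psme2 lie close together on chromosome 14 with Emc9 between them, a subunit of a membrane protein insertase. Emc9 was also higher, by 1.22 (adjusted p = 0.00660) at mean levels of 1.14 and 2.67 CPM in the 2 groups. On the far side of Psme2, Rnf31, a ubiquitin ligase subunit, had a log2 fold change of -0.25 (adjusted p = 0.154), and Irf9, which comes next, of 0.47 (adjusted p = 0.0472 in edgeR, 0.0712 in DESeq2). For Psmb10, on chromosome 8, the 3 tested genes among its 4 nearest neighbours had log2 fold changes of 0.18 (Pskh1), 0.60 (Lcat) and -0.18 (Slc12a4), with adjusted p of 0.298, 0.213 and 0.244.

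Because these genes moved together, their promoters are shown, from RefSeq on GRCm38.p6, an older build than the GRCm39 of the counts. Windows of 300 bases (250 before and 50 after a start site) were found for 43 of the 51 Psm genes and were searched on both strands for 4 motifs. These were the core of the interferon-stimulated response element (GAAA, any 2 bases, GAAA), the gamma-activated site TTCNNNGAA, the antioxidant response element core TGACNNNGC, and TGGAAA, the core letters of the element that TonEBP binds. The 225 bases between the start sites of Psmb9 and Tap1 are given on the strand of Psmb9, which starts right after the last base (chr17:34187331-34187555, minus strand). A TGGAAA is in capitals, and it is the only one of the 4 motifs in the window of Psmb9.
Psmb9 to Tap1: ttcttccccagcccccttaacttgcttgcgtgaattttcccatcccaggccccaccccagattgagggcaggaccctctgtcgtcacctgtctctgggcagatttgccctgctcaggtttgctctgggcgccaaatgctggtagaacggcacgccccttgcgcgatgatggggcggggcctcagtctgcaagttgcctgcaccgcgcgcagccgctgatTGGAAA
In Psmb8 a gamma-activated site lies 97 bases before the start (chr17:34198088-34198116, plus strand), and in Psme1 an interferon-stimulated response element core on the other strand lies 9 bases after it (chr14:55578494-55578523, plus strand). Both are in capitals.
Psmb8: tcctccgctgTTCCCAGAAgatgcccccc
Psme1: gagctgtgcTTTCGCTTTCccttcccgctg
Over all 43 Psm genes the response element core was found in 5 (11.6% against 3.99% of all genes with a window) and the gamma-activated site in 3 (6.98% against 9.55%). TGGAAA was found in 10 (23.3% against 24.0%). Among the 5 immune subunits, the response element core was in Psme1 alone, the gamma-activated site in Psmb8, and TGGAAA in Psmb8 and Psmb9. The windows of Psmb10 and Psme2 held none of the 4 motifs. The other genes with the response element core were Psmb3, Psmd4, Psmd9 and Psmg4. None of the matches printed overlapped another of the 4 motifs. A match of letters is a description and shows no binding.

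Of the 14 core subunits, 11 were called higher and 3 (Psma3, Psma4 and Psmb1) were not, and the larger changes were among the beta subunits. With the length trend removed, 5 of the 14 were called higher, where 27.4% of all genes tested were. With the length and GC trends removed, 8 of the 14 were, against 31.9% of all genes tested. Psmb5, the constitutive chymotrypsin-like subunit, stood at 20.7, 13.7 and 15.7 CPM in sh-NC and at 32.2, 66.4 and 30.5 in sh-TonEBP. The sh-TonEBP replicate 2 stood well above the other libraries. The log2 fold change was 1.37 (standard error 0.30, adjusted p = 0.00370), 0.92 without that library, and 0.73 and no longer called (adjusted p = 0.0535) with the length and GC trends removed. Psmb6, the constitutive caspase-like subunit, stood at 103, 55.8 and 79.0 CPM in sh-NC and at 199, 180 and 156 in sh-TonEBP, and rose by 1.17 on the log2 scale (standard error 0.19, adjusted p = 0.000680) without overlap. Its change was 0.73 with the length trend removed and 0.54 with both trends removed, and it was called in each. Psmb7, the constitutive trypsin-like subunit, stood at 118, 81.2 and 103 CPM in sh-NC and at 130, 174 and 117 in sh-TonEBP. Its groups overlapped, and the call of its rise (0.48 on the log2 scale, standard error 0.17, adjusted p = 0.0312) was lost without sh-NC replicate 2 (adjusted p = 0.0996), without sh-NC replicate 3 (0.0715), without sh-TonEBP replicate 2 (0.154), with the replicate number as a block (0.0543) and with the length trend removed (0.309).

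**Figure D2:**
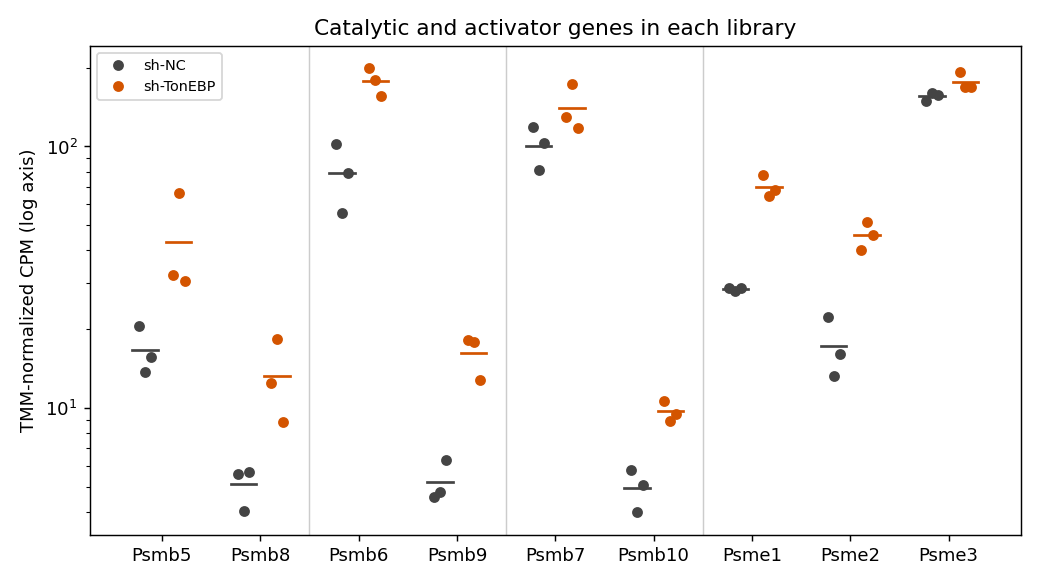
TMM-normalized CPM (y axis, log scale) of the catalytic and activator genes in each of the 6 libraries, with each constitutive subunit beside the immune one that replaces it. Points are libraries and lines are group means. Psmb8 to Psmb10 stood at 3.98 to 6.33 CPM in sh-NC and 8.86 to 18.3 in sh-TonEBP.

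Of the 4 beta subunits without a protease site, Psmb4 changed most. It stood at 197, 130 and 159 CPM in sh-NC and at 310, 344 and 305 in sh-TonEBP (log2 fold change 0.98, adjusted p = 0.000180). Psmb2 stood at 83.0, 70.6 and 70.8 CPM against 131, 109 and 118 (log2 fold change 0.67, adjusted p = 0.000633), but its change was 0.24 (adjusted p = 0.142) with the length trend removed and 0.20 (adjusted p = 0.136) with both removed. Psmb3 had a log2 fold change of 0.52 (adjusted p = 0.0108), which was 0.05 (adjusted p = 0.784) with the length trend removed and turned to -0.099 with both removed. Psmb1 had a log2 fold change of 0.11 and was not called. In the alpha ring, 5 of 7 subunits were called higher. Psma7 stood at 225, 180 and 201 CPM against 335, 304 and 274 (log2 fold change 0.59, adjusted p = 0.00174), and Psma2 at 139, 112 and 127 against 168, 201 and 175 (0.52, adjusted p = 0.00335). Both were without overlap. Psma7 was at 0.28, and still called, with the length trend removed. Psma5, Psma6 and Psma1 had log2 fold changes of 0.53, 0.36 and 0.33 and were called, but none was called with the length trend removed, where they were 0.25, 0.04 and 0.03 (adjusted p = 0.0846, 0.810 and 0.852). With both trends removed, Psma5 (0.30) and Psma1 (0.35) were called higher, and Psma6 (0.22, adjusted p = 0.0639) was not. Psma6 also lost its call without sh-NC replicate 2 or 3 and without sh-TonEBP replicate 2 or 3 (adjusted p = 0.0961 to 0.0999), and Psma1 without sh-NC replicate 1 (0.0615) or 3 (0.104) and without sh-TonEBP replicate 2 (0.12). Psma4 had a log2 fold change of 0.36 (adjusted p = 0.0528) and Psma3 of 0.02 (adjusted p = 0.896). With both trends removed, Psma3 (0.45, adjusted p = 0.000649) and Psma4 (0.29, adjusted p = 0.048) were called higher. Psma4 was also called with the replicate block (adjusted p = 0.0189) and with no filter on low counts (adjusted p = 0.023). In the fit with both trends removed, 6 of the 7 alpha genes were called higher, against 31.9% of all genes tested.

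Summed over the 14 core genes, the level was 2099, 1691 and 1884 CPM in sh-NC and 2598, 2833 and 2556 in sh-TonEBP, with sh-NC replicate 2 the lowest. No core gene was called lower by edgeR, none had a negative change at an unadjusted p under 0.05, and DESeq2 called 0 lower. Over all 11943 genes tested, these counts were 3130, 3535 and 2963.

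The replacement of constitutive by immune subunits was compared within each library, as reads of the immune gene per 100 reads of its constitutive partner. For Psmb8 to Psmb5 the values were 27.0, 29.5 and 36.3 in sh-NC and 38.5, 27.6 and 29.0 in sh-TonEBP. These ranges overlapped almost fully, with a difference of the mean log2 ratios of 0.03 (exact two-sided permutation test over libraries, p = 0.8). For Psmb9 to Psmb6 they were 4.44, 8.55 and 8.02 against 9.08, 9.92 and 8.19, a difference of 0.43 (exact p = 0.2) that was 0.13 without sh-NC replicate 1, the low library. For Psmb10 to Psmb7 they were 4.88, 4.90 and 4.92 against 8.18, 5.14 and 8.11, a difference of 0.51 (exact p = 0.1). All 3 sh-TonEBP libraries were above the sh-NC libraries for this ratio, 1 of them only just. With 3 libraries against 3 the smallest p the test can give is 0.1, and adjusted over the 3 ratios the values were 0.8, 0.3 and 0.3, so no difference could pass, and the test does not show that the ratios were equal. Per kilobase of exon, the 3 immune subunits made up 4.23%, 5.51% and 5.54% of the summed level of the 6 catalytic genes in sh-NC and 6.82%, 6.51% and 6.28% in sh-TonEBP. The share was higher in each sh-TonEBP library than in any sh-NC library, and the constitutive subunits held most of the sum in all 6. On the same scale, Psmb8 went from 3.14 to 8.10 CPM per kilobase where Psmb5 went from 18.6 to 47.9, Psmb9 from 3.86 to 12 where Psmb6 went from 99.2 to 224, and Psmb10 from 3.76 to 7.40 where Psmb7 went from 86.9 to 121.

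**Figure D3:**
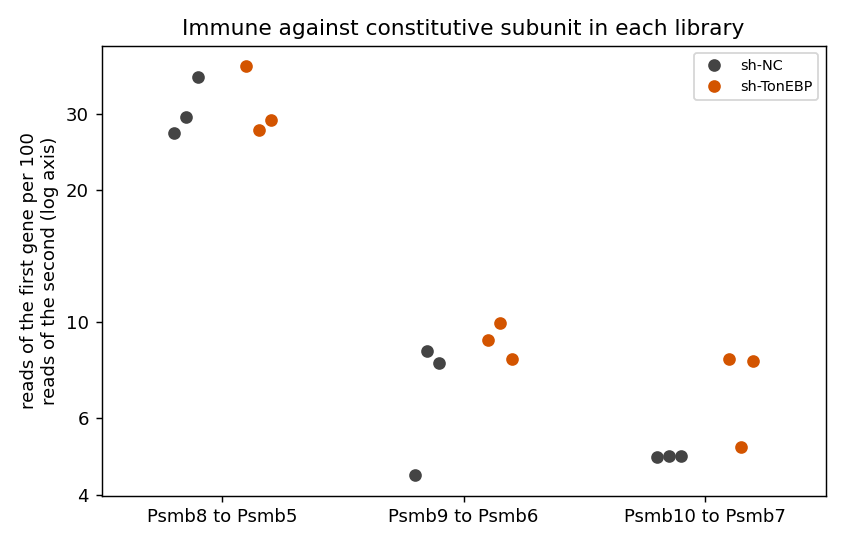
Reads of the immune subunit per 100 reads of the constitutive subunit (y axis, log scale) in each library, for the 3 pairs of catalytic genes. Groups overlap for the first and second pair, and in the third pair the sh-NC libraries lie at 4.88 to 4.92 and the sh-TonEBP libraries at 5.14 to 8.18.

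In the cap, the ring of ATPases was split. Psmc4 stood at 62.9, 50.7 and 58.4 CPM in sh-NC and at 113, 103 and 99.1 in sh-TonEBP, a rise of 0.88 on the log2 scale (standard error 0.12, adjusted p = 0.000114). Psmc5 stood at 138, 103 and 127 CPM against 233, 216 and 206, a rise of 0.83 (standard error 0.12, adjusted p = 0.000215). Psmc3, Psmc1 and Psmc2 rose by 0.72, 0.54 and 0.50, so that 5 of the 6 ATPases were higher. Psmc6 was the exception. It stood at 128, 152 and 133 CPM in sh-NC and at 53.0, 88.5 and 102 in sh-TonEBP. Every sh-TonEBP library was below every sh-NC library, replicate 1 by the most, and the log2 fold change was -0.77 (standard error 0.20, adjusted p = 0.00989). The call held with each library left out, and the value was -0.53 without sh-TonEBP replicate 1 and -0.26 with the length and GC trends removed. The product of Psmc6 sits in the same ring as those of the other ATPases.

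Among the base subunits that are not ATPases, Psmd2, which binds shuttle proteins and deubiquitinases, had the highest level per kilobase of exon among the cap genes (143 CPM per kilobase in sh-NC and 217 in sh-TonEBP). It stood at 441, 407 and 422 CPM in sh-NC and 689, 628 and 614 in sh-TonEBP (log2 fold change 0.60, adjusted p = 0.000809). Psmd4, a receptor for ubiquitin chains, stood at 242, 204 and 218 CPM against 348, 248 and 267 (log2 fold change 0.38, adjusted p = 0.0348). Its call was lost without sh-TonEBP replicate 1 (adjusted p = 0.112), without sh-NC replicate 2 (0.10) or 3 (0.102) and with the length trend removed (0.133). Psmd1, the scaffold of the base, had a log2 fold change of 0.26 (adjusted p = 0.0536).

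The lid, which holds the deubiquitinase Psmd14, changed least of the classes of core and cap by its median, 0.12 on the log2 scale, and 2 of its 8 genes were called. Psmd7, the inactive partner of the lid's deubiquitinase, stood at 145, 156 and 144 CPM in sh-NC and at 204, 190 and 183 in sh-TonEBP (log2 fold change 0.38, adjusted p = 0.00957). Psmd13 stood at 76.8, 72.1 and 78.2 CPM against 114, 98.5 and 89.4 (log2 fold change 0.41, adjusted p = 0.0118). The Psmd7 call was lost with the length trend removed (0.17, adjusted p = 0.209), with both trends removed (adjusted p = 0.0894) and without sh-NC replicate 3 (adjusted p = 0.0587). Psmd13 was lost with both trends removed (0.16, adjusted p = 0.147), which left no lid gene called. Psmd14, the deubiquitinase itself, had a log2 fold change of -0.05 (adjusted p = 0.729). Psmd3, Psmd6, Psmd8, Psmd11 and Psmd12 lay between -0.10 and 0.29 and were not called. Over the series, 47.5% of the genes tested were not called. Summed levels rose from 949 ± 27.8 to 1045 ± 45.0 CPM in the lid and from 749 ± 44.4 to 1057 ± 30.7 CPM in the ATPase ring (SD, n = 3 in each group, with no test).

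The assembly chaperones, which build the rings and leave before the proteasome is complete, were mixed. Psmd9, which helps to build the base, stood at 24.6, 20.8 and 25.1 CPM in sh-NC and at 35.3, 40.8 and 31.5 in sh-TonEBP (log2 fold change 0.61, adjusted p = 0.00358). Psmg4, a chaperone of the alpha ring, stood at 12.8, 8.42 and 9.59 CPM against 15.7, 18.6 and 16.3 (log2 fold change 0.71, adjusted p = 0.00571), but had a log2 fold change of -0.06 with the length and GC trends removed. Psmg1 had a log2 fold change of 0.50 (adjusted p = 0.00906), which was 0.14 (adjusted p = 0.374) with the length trend removed and 0.081 with both removed. Psmg2 and Psmg3 had log2 fold changes of 0.03 and 0.35 and were not called. Psmd5, at 0.27 (adjusted p = 0.0841), was called higher with the length trend removed (0.37, adjusted p = 0.0161) and with both removed (0.65, adjusted p = 2.73e-05). Psmd10, known as the oncoprotein gankyrin, had a log2 fold change of -0.36 (adjusted p = 0.0783) and was called lower with the length trend removed (adjusted p = 0.00883). Psmf1, an inhibitor that binds the core, rose from 26.9, 28.4 and 28.8 CPM to 39.9, 35.2 and 34.3 (log2 fold change 0.38, adjusted p = 0.0217), a call lost without sh-NC replicate 1 (adjusted p = 0.0785) or 3 (0.0657) and without sh-TonEBP replicate 1 (0.0549). The symbol rule also took Psmc3ip, a recombination factor, with a log2 fold change of 0.08, and Psme3ip1, with 0.28. They are no subunits, and neither was called.

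The core, cap and activator genes differ in length, and changes in these libraries followed length and base composition. The median exonic length was 1469 bases over the Psm genes and 3338 over all genes tested. Across the 11929 tested genes with a length, Spearman's rho of the log2 fold change was -0.30 with length and 0.43 with GC content. Across the 49 Psm genes the values were -0.52 and 0.64, and across the 31 genes of core and cap -0.53 and 0.60. Genes are not independent replicates and share the same 6 libraries, so no p is given. With the length trend removed, 21 Psm genes were called higher, where 27.4% of all genes were, and 2 lower, where 23.6% were. With the GC trend removed as well, 25 were called higher against 31.9% of all genes, and 1 lower against 21.0%. Of the 30 genes first called higher, 20 were called in each of these fits, and 17 were called in every alternative that kept the adjusted p, among them the 5 immune subunits, Psmb4, Psmb6, Psma2, Psma7, the 5 ATPases and Psmd2. In the core the count went from 11 of 14 to 5 with the length trend removed and to 8 with both, and in the cap from 9 of 17 to 7 and 7. The counts with both removed include Psma3, Psma4 and Psmd1, which the main fit did not call. The Nfat5 change was -0.56 with the length trend removed and -0.19, no longer called, with both removed. The part of length and base composition in these results was not tested.

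**Figure D4:**
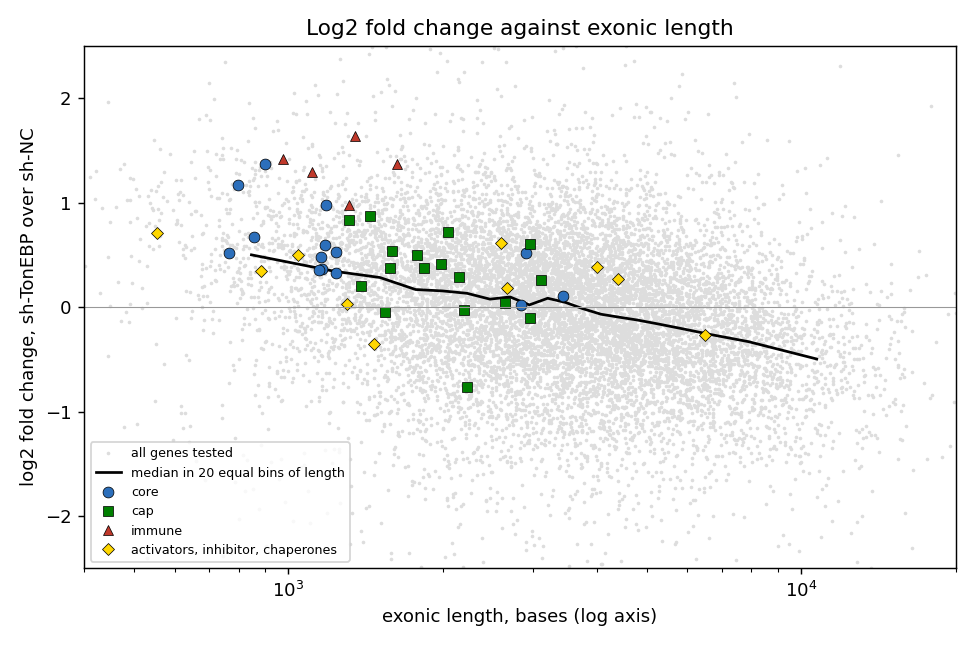
Log2 fold change (y axis, sh-TonEBP over sh-NC) against exonic length in bases (x axis, log scale) for all genes tested (grey, those beyond the axes not drawn), with the Psm genes coloured by class and the median over bins of length as a line. The line falls from left to right, most core genes are short and lie near or above it, and the 5 immune genes lie above it.

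The antioxidant response element is the site that Nfe2l1, the factor known to raise proteasome genes when the protease is inhibited, and its relative Nfe2l2 bind. Its core was found in the windows of 6 of the 43 Psm genes (14.0% against 14.0% of all genes with a window), among them Psmb5 at 47 and Psmb6 at 9 bases before the start, but also Psmc6 at 227 and Psme4 at 7 bases before it. The core letters are in capitals, and for Psmc6 and Psme4 they read on the other strand. The positions are chr14:54618024-54618052 (minus strand) for Psmb5, chr11:70525338-70525366 (plus) for Psmb6, chr14:45329587-45329615 (plus) for Psmc6 and chr11:30771758-30771786 (plus) for Psme4, on GRCm38.p6.
Psmb5: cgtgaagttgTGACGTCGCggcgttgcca
Psmb6: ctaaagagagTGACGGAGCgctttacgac
Psmc6: ccagccagtaGCTAAGTCAggcattgctc
Psme4: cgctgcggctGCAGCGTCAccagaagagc
The genes shown include 2 that rose, the 1 that fell and 1 that was not called.

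Of 39 tested genes that work with the proteasome but carry no Psm name, 18 were called higher, 6 lower and 15 were not called, where 26.3% of all genes tested were higher, 26.2% lower and 47.5% not called. None of the 5 genes listed for the transcription of proteasome genes was called in this fit. Not all of them are transcription factors, and RNA levels do not measure the activity of their proteins. Nfe2l1 stood at 282, 286 and 299 CPM in sh-NC and at 268, 251 and 213 in sh-TonEBP (log2 fold change -0.24, adjusted p = 0.0910), and Ddi2, the protease that releases it, had a log2 fold change of -0.21 (adjusted p = 0.143). Of the 5 genes of this list (with Nfe2l2, Akirin2 and Ngly1) 0 were called by edgeR or by DESeq2, and 0 had an unadjusted p under 0.05 in edgeR. Of all 11943 genes tested, edgeR called 3140 higher and 3130 lower, and DESeq2 3036 and 2963. At an unadjusted p under 0.05 in edgeR, 3524 were higher and 3535 lower. In other fits 3 of them were called. Nfe2l1 was lower without sh-TonEBP replicate 1 (-0.32, adjusted p = 0.0336) and with the length and GC trends removed (-0.26, adjusted p = 0.0301), Ddi2 was higher with both trends removed (0.33, adjusted p = 0.00749), and Akirin2, a nuclear import factor of proteasomes, was lower with the length trend removed (-0.42, adjusted p = 0.00921).

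The 5 partners of the MHC class I route were all called higher, and 4 of them with the length trend removed, against 26.3% and 27.4% of all genes. Tapbp, which joins MHC class I to the peptide transporter, stood at 75.8, 80.8 and 82.5 CPM in sh-NC and at 167, 130 and 138 in sh-TonEBP (log2 fold change 0.86, adjusted p = 0.000130). Tap2 stood at 27.1, 21.6 and 26.5 CPM against 53.8, 45.3 and 38.8 (log2 fold change 0.88, adjusted p = 0.000550), and Tap1 at 17.5, 15.9 and 17.3 against 34.0, 25.7 and 25.9 (log2 fold change 0.76, adjusted p = 0.00131). Erap1, which trims peptides, and B2m, the light chain of MHC class I, had log2 fold changes of 0.84 and 0.57, and B2m was not called with the length trend removed (0.11, adjusted p = 0.558). The interferon regulators of immunoproteasome genes went both ways. Irf1, an activator of Psmb9 and Tap1, stood at 14.0 ± 2.66 CPM in sh-NC and at 26.9 ± 3.18 in sh-TonEBP (SD, n = 3), without overlap (log2 fold change 0.93, adjusted p = 0.000635), and Stat2 at 40.5, 37.4 and 44.3 against 59.5, 61.6 and 62.1 (0.58, adjusted p = 0.00125). Irf9, at 0.47, was not called by DESeq2 (adjusted p = 0.0712). Irf8, a factor of myeloid cells, had a log2 fold change of -1.11 (adjusted p = 0.00186) and Nlrc5, the class I transactivator that also acts on Psmb9, of -0.62 (adjusted p = 0.00448), which was -0.25 and not called with the length trend removed (adjusted p = 0.153).

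Among proteins bound to the proteasome, Adrm1, a ubiquitin receptor of the base, stood at 72.9, 56.2 and 75.7 CPM against 110, 103 and 101 (log2 fold change 0.62, adjusted p = 0.00184). With the length and GC trends removed Adrm1 was at 0.17 and not called (adjusted p = 0.148). Sem1, a small lid protein, stood at 100.4, 41.5 and 69.9 CPM against 103, 192 and 121, with sh-TonEBP replicate 2 well above the others. Its log2 fold change of 0.97 was called by edgeR (adjusted p = 0.0250) but not by DESeq2 (0.0605), with the replicate block (0.287), without sh-TonEBP replicate 2 (0.0702) or 1 (0.0777) or without sh-NC replicate 2 (0.0614) or 3 (0.104). Ecpas, a scaffold that holds core and cap together, stood at 258, 275 and 244 CPM in sh-NC and at 154, 173 and 195 in sh-TonEBP (log2 fold change -0.58, adjusted p = 0.00158). Its value was -0.13 with the length trend removed and 0.18 with both trends removed, called in neither. The ligase Ube3c had a log2 fold change of -0.45 (adjusted p = 0.00854), also called in neither of these fits. The other 4 of these 8 genes, among them the core maturation factor Pomp (0.39, adjusted p = 0.0951), were not called. Of 11 genes of ubiquitin supply and shuttling, 6 were higher and 1, the ubiquitin-activating enzyme Uba6, was lower, against 26.3% and 26.2% of all genes. Uba6 had a log2 fold change of -0.63, which was -0.36 and not called with the length trend removed (adjusted p = 0.0780), turned to 0.23 and was called higher with both removed (adjusted p = 0.0346), and was not called without sh-NC replicate 2 (0.0706). Ubb, a polyubiquitin gene, stood at 491, 453 and 494 CPM against 791, 1036 and 723 (log2 fold change 0.83, adjusted p = 0.000518), and Ubqln4, a shuttle protein, rose by 0.57 (adjusted p = 0.000994). Vcp, the segregase p97 that pulls ubiquitinated proteins out of complexes, stood at 340, 402 and 337 CPM against 521, 520 and 494 (log2 fold change 0.51, adjusted p = 0.00290), while its cofactor Ufd1 had a log2 fold change of -0.33 (adjusted p = 0.0261). That call was lost without sh-NC replicate 1 (0.0879) or 3 (0.0995), without sh-TonEBP replicate 1 (0.0548) and with no filter on low counts (0.0532).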

How the data were processed

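RNA-seq of BV2 cells was analysed from the table of raw read counts per gene that the authors deposited. Tools named in the submitters' processing notes, without roles, are HTSeq 0.9.1, HISAT2 2.0.5, cutadapt 1.15 and DESeq 1.30.0, and the build named is GRCm39. Strand setting, annotation release and multiple matches were not given in the sources used here. The sh-TonEBP columns were assigned as those of the only other shRNA.

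Symbols were matched for 21795 of 21899 identifiers, and the other 104 held 0.0671% of counts. edgeR 4.0.16 in R 4.3.3 (filterByExpr, TMM, robust quasi-likelihood test, group only) tested 11943 genes. The common biological coefficient of variation was 0.135. Replicate pairs had a chi-square per degree of freedom of 5.33 to 29.3, and none were merged. Exonic length and GC content came from GENCODE M21 on GRCm38, and trends on them were removed as offsets per library. Alternatives were DESeq2 1.42.0, RLE factors, library totals, other filters, a replicate block, length and GC offsets, the study's cutoffs and leaving out each library. The main edgeR fit and the length offset were tested on simulated data.

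The Psm genes and all lists were chosen with earlier results of these data known. Values per library are given for the immune and constitutive catalytic subunits, Psme3, Psme4, Psmf1, the Psm gene called lower, Nfe2l1 and Tap1. They also cover the 2 members of each other class and partner list with the smallest p, except Psme3ip1, Irf1, Ddi2, Ubqln4 and Ufd1. Irf1 has group means, and the other exceptions have log2 fold changes. Further genes are given briefly so that every Psm gene is accounted for. One partner, Paaf1, was not analysed here. Values of some partner genes are not reported here.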

Additional observations from a re-analysis of the deposited data

How the results depend on the processing

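The 5 immune subunits were called higher under every alternative that keeps the adjusted p. At the study's cutoffs (a log2 fold change over 1 or under -1 and an unadjusted p under 0.05), 7 Psm genes were higher and 0 lower, 2 core genes were higher, and in the cap 0 were higher and 0 lower. With the length trend removed, 5 core genes were higher and 2 Psm genes lower (Psmc6 and Psmd10), and the same counts came from the length trend with the replicate block. With the replicate block alone, 2 Psm genes were lower.

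With each library left out in turn, 24 to 31 Psm genes, 8 to 12 core genes, 7 to 10 cap genes and 5 immune genes were higher, and 1 Psm gene was lower. The lowest counts came without sh-NC replicate 3, where 24 of the 30 genes kept their call. The shares of all genes called in the leave-one-out and block fits are not given here, so these counts have no background beside them. The difference in the log2 ratio of Psmb8 to Psmb5 (0.03) changed sign, to -0.070, with 1 CPM added, and ranged from -0.12 (without sh-TonEBP replicate 1) over -0.062 (without sh-NC replicate 1) to 0.15. The other ratios ranged from 0.13 to 0.60 and from 0.40 to 0.73.

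With the replicate number as a block, 30 Psm genes were higher, 29 of them from before, and 2 were lower. The deviations of same-numbered libraries from their group means had correlations of 0.18, 0.06 and -0.07. The highest value of any pair was 0.20, for sh-NC replicate 2 and sh-TonEBP replicate 3. With 3 libraries in a group these deviations cancel out, so the values cannot decide whether the numbers pair the libraries. Over the exact test of 3 pairs the ratio differences had p of 1.0, 0.25 and 0.25, where 0.25 is the smallest p that 3 pairs can give.

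Of 41 genes named by the rule, 41 kept direction and call under DESeq2, RLE factors and library totals, 33 with the length trend removed and 27 with length and GC removed. Signs turned for Psme4 (0.31, called higher), Psmg4 (-0.062) and Ecpas (0.18) with both removed, where the median over all genes tested was 0.09. For Ddi2 the values were 0.24 with the length trend removed, alone or with the block, and 0.33 with both trends removed. For Psmc3ip they were -0.20 and -0.21 with length, -0.17 with both trends, and -0.052 without sh-TonEBP replicate 2. The causes were not tested. Depth limits the genes with few counts, such as Psmb10 and Psmg3.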
